A study of Homo sapiens with 9 samples.

Results

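The table of gene expression analysed here holds 69 rows whose identifier is MI followed by digits, the form in which the microRNA registry miRBase numbers its hairpin entries, out of 60829 rows in all. They were chosen by identifier alone, and no measured value was used. The table was made from total RNA, sequenced after depletion of ribosomal RNA, of the established human embryonic stem cell line H1. The 9 libraries come from a control clone (labelled chrX-ctrl_H1, genotype WT, 4 libraries) and from a clone with a knockout of the HERVHlin locus on chromosome X (labelled chrX-KO_H1, 5 libraries). HERVH elements are remnants of retroviruses in the human genome, and many of them are active in pluripotent cells. Both clones carry the treatment tag of differentiated cells, although they were grown in mTESR, a stem cell medium, on vitronectin. Each group is 1 clone sampled at successive passages, handled in the study as technical replicates although titled biological ones, so the p-values below measure the spread between passages. The study asked which genes are expressed differently after the knockout.

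A microRNA gene is transcribed as a long primary transcript that the nuclear enzyme DROSHA, with its partner DGCR8, cuts into a short hairpin. DICER1 then cuts the hairpin into the mature microRNA, which an Argonaute protein such as AGO2 carries to its target messages. In human pluripotent cells LIN28A blocks this maturation for the let-7 family. A total RNA library is not made for mature microRNAs, so reads in a row named for a hairpin can also come from the primary transcript or from any longer RNA that holds the same letters.

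The 69 rows carry 66 different registry identifiers, and 0 of these were paired with a microRNA name in the reference tables used here. They are therefore given by identifier, without a position or a sequence of their own. The other microRNA rows of the table have Ensembl identifiers, and the sequences of the most abundant named ones are shown because their levels stand nearest to those of the 5 most abundant MI rows. The mature sequences below come from RefSeq (GRCh38.p14), with the seed, bases 2 to 8, in capitals.
hsa-miR-663a: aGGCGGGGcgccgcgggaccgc
hsa-miR-663b: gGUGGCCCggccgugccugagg
hsa-miR-3648: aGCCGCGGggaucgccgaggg
The first lies at chr20:26208243-26208264 on the minus strand, inside the noncoding host gene MIR663AHG. The second lies at chr2:132256970-132256991 on the minus strand, where its hairpin gene MIR663B overlaps ANKRD30BL. The third is given for the copy MIR3648-2 at chr21:8987026-8987046 on the plus strand, and the other copy, MIR3648-1 (chr21:8208473-8208652), lies within RNA45SN2, a gene for the ribosomal RNA precursor. No 2 of the 3 share a seed, and G and C make up 90.9%, 81.8% and 81.0% of their bases in the order shown.

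The unit of the values limits what a low value in these rows can mean. The deposited values, called normalized counts here, are counts scaled by a size factor of each library, and division by the smallest value above 0 returned whole counts of 19838682 to 31192630 per library. The 69 rows gave 204 values above 0 over the 9 libraries, and 0 of them lay below 10 counts. The lowest was 15 counts, and the lowest in each library ran from 15 to 50. Rows of type miRNA behaved alike, with at most 0.881% of their values above 0 under 10 counts in a library and a most frequent value of 39 to 70 counts, whereas 14.96% to 20.05% of the values above 0 of protein-coding rows lay under 10. Among genes with a single transcript in GENCODE 29, 0.103% of the values above 0 lay under 10 counts for transcripts of up to 100 bases, against 55.2% for those over 1000 bases. How many sequenced fragments stand behind a low value in an MI row is therefore not known, and no counting interval, detection limit or fold against a group at 0 is given for them.

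**Figure D1:**
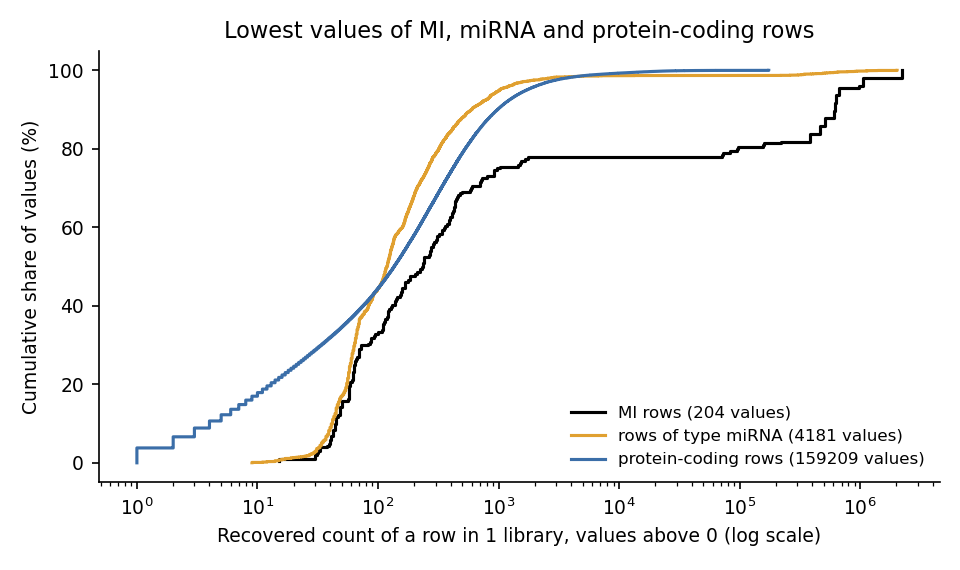
Cumulative share of the values above 0 (percent) against the recovered count of a row in 1 library (log scale), for MI rows, rows of type miRNA and protein-coding rows, all 9 libraries together. The MI curve starts at 15 counts, while the protein-coding curve starts at 1 count.

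The authors mark 3 rows as the knocked-out feature, and they check the labels. The row gene.human_00015544 ran from 1316 to 3935 normalized counts in the control clone and from 25.9 to 73.0 in the knockout clone (limma adjusted p = 0.00018). A second ran from 312 to 1036 and from 68.0 to 169 (limma adjusted p = 0.016), and the groups of the third overlapped (limma adjusted p = 0.44). The 8 stem cell markers examined, POU5F1, NANOG and SOX2 among them, had median levels of 1031 to 10756 normalized counts over the libraries. Of the endoderm, mesoderm and neural markers, 3 of 4 in each list had a median under 10. The summed level of the 4 neural markers ran from 148 to 174 in the control clone and from 203 to 307 in the knockout clone, without overlap, nearly all of it MAP2 (means of 156 and 236), and its part in the MI values was not tested. The sums of the other 4 marker lists overlapped between the clones. Among 6 fibroblast markers COL1A1 and COL1A2 had medians of 537 and 633, while LUM was at a median of 0.

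Of the 69 MI rows, 26 were at 0 in every library and 43 were above 0 in at least 1. Only 11 rows were above 0 in all 9 libraries, and as many, 11, were above 0 in a single library, 7 of them in a control library and 4 in a knockout library. The rows seen in a single library held 15 to 203 counts there, with a median of 63, which is near the most frequent low values of the miRNA rows. Over all rows and libraries, 31.2% of the control values and 34.2% of the knockout values were above 0, and a library had 17 (control 3) to 27 (control 4 and knockout 4) MI rows above 0. No row was seen in more than 1 control library and absent from the knockout clone, and 2 rows were seen in more than 1 knockout library and absent from the control clone. These were MI0033670_gene, described further on, and MI0031827_gene, picked here after its values were seen, at 36.4 and 50.7 normalized counts in knockout 1 and 2. In recovered counts these 2 values were 38 and 45. The knockout clone has 5 libraries against 4, so a row can be seen there more often. The share of such rows over the whole table was not counted, and the numbers are not read as a difference between the clones.

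**Figure D2:**
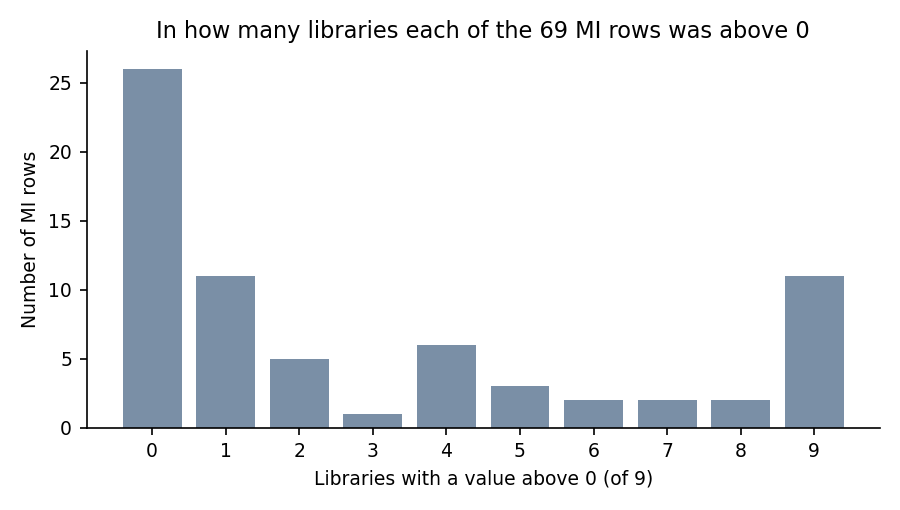
Number of MI rows (vertical axis) by the number of the 9 libraries in which the row was above 0 (horizontal axis). The 26 rows at 0 everywhere form the tallest bar, and 11 rows each stand at 1 and at 9 libraries.

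Nearly all of the counts sat in 5 rows. The rows MI0033425_gene, MI0033425_2_gene, MI0033425_3_gene and MI0033425_4_gene held the same value as each other in every library, so they are treated as 1 measurement. Whether each row holds the whole of its reads or a part of them is not known from the table. Together they took 90.0% to 96.5% of the counts of the MI rows, and MI0033426_gene took another 3.26% to 9.90%, so that the 5 rows held 99.7% to 99.9%. The lowest count of these 5 rows in any library was 70778, and the highest count of any of the other 64 rows was 1766.

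As a share of all counts, the MI rows took 11.0%, 11.8%, 5.28% and 12.7% in control libraries 1 to 4. In knockout libraries 1 to 5 they took 31.4%, 17.8%, 10.2%, 12.3% and 8.40%. Knockout 1 and knockout 2 stood above every control library, while knockout 3, 4 and 5 fell within the control range. The sum averaged 2629840 ± 1063581 normalized counts in controls (SD, n = 4) and 4102385 ± 3250691 in the knockout clone (SD, n = 5), a ratio of 1.56 that is given as a description, with no test. Without knockout 1 the ratio was 1.06. These shares and sums take each of the 4 identical rows at its listed value. With the 4 counted once, the MI rows took 1.56% to 3.88% of the counts in the control clone and 12.9%, 5.86%, 3.36%, 3.95% and 2.51% in knockout 1 to 5. By these shares knockout 4, too, stood just above every control library. The ratio of the sums was then 1.71 (1.11 without knockout 1). The share of protein-coding rows was lowest in knockout 1 (26.3%) and control 2 (27.5%) and highest in control 3 (50.8%), the library with the lowest MI share. A high MI share by itself lowers this share. Of the counts outside the MI rows, protein-coding rows took least in control 2 (31.2%), 38.3% in knockout 1 and most in control 3 (53.7%). The part of library composition in these shares was not tested.

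**Figure D3:**
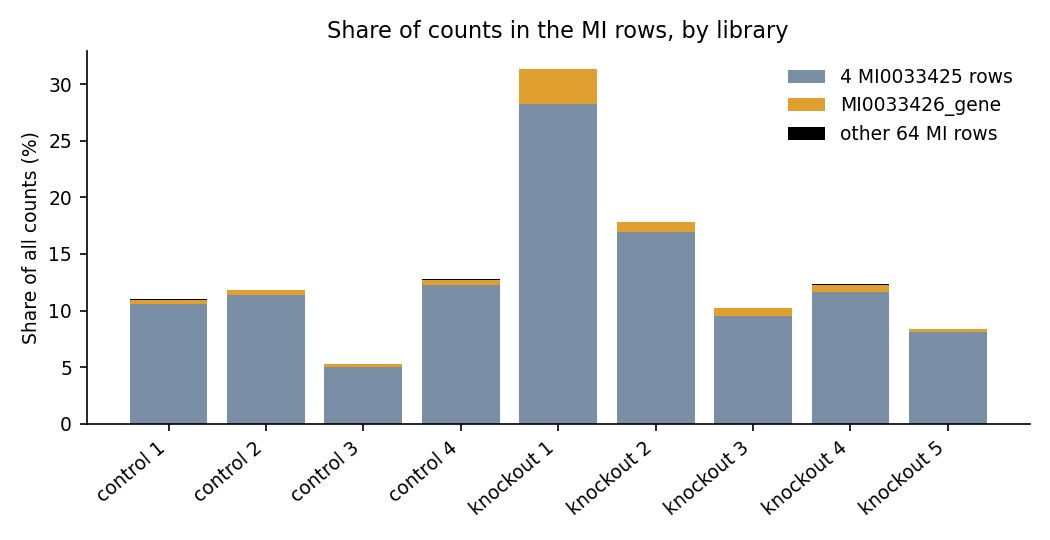
Share of all counts of a library (percent) held by the MI rows, 1 bar per library, split into the 4 identical MI0033425 rows, MI0033426_gene and the other 64 rows. Knockout 1 reaches 31.4% and control 3 has 5.28%, and the other 64 rows are too few counts to be seen.

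Each MI0033425 row stood at 665771, 962126, 348469 and 551028 normalized counts in control 1 to 4. In knockout 1 to 5 it stood at 2110115, 1200425, 591817, 497941 and 339663. Knockout 1 and 2 were above all controls, knockout 5 was below all controls, and the groups overlapped. The log2 fold change on the log2(value + 1) scale of the limma tests was 0.36 (SE 0.66, limma adjusted p = 0.89), and it was -0.01 without knockout 1.

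MI0033426_gene stood at 101149, 151511, 64520 and 74553 normalized counts in control 1 to 4. In knockout 1 to 5 it stood at 927771, 249341, 184511, 116233 and 53143. Knockout 1, 2 and 3 were above all controls, and knockout 5 was below them. The estimate of log2 fold change, 1.05 (SE 0.73, limma adjusted p = 0.75), did not pass, and the groups overlapped. It was 0.49 without knockout 1 and 1.66 with DESeq2.

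Other microRNA rows with very high values were highest in control 2 or in knockout 1. MIR663B stood at 1144216, 3147785, 575654 and 657833 normalized counts in control 1 to 4 and at 1336079, 1383011, 938255, 677353 and 658791 in knockout 1 to 5, so its highest library was control 2 and not knockout 1 (log2 fold change -0.19, SE 0.67, limma adjusted p = 0.94). MIR3648-1 and MIR3648-2 were identical to each other and ran from 309005 in control 3 to 1219937 in control 2, with 1099923 in knockout 1 (log2 fold change 0.35, SE 0.58, limma adjusted p = 0.88). MIR663A was also highest in control 2, at 831942, with 621040 in knockout 1. The rows ENSG00000264063 and ENSG00000277437, identical to each other and without a symbol, were highest in knockout 1, at 1079580, with 751995 in control 2. Control 3 was the lowest library for MIR663B and MIR3648-1, and knockout 5 was the lowest for the MI0033425 and MI0033426 rows. Rows named for ribosomal RNA, mitochondrial ones included, took 1.18% to 2.04% of the counts in the control clone. They took 1.07% to 1.497% in the knockout clone, with 1.40% in knockout 1, and their part in the MI values was not tested.

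The other 64 rows together held 4027, 4986, 3610 and 5426 normalized counts in control 1 to 4. They held 5872, 3278, 2826, 5230 and 3876 in knockout 1 to 5. These sums overlapped and averaged 4512 ± 839 (SD, n = 4) and 4216 ± 1294 (SD, n = 5).

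A group of 6 of these rows was above 0 in every library, at levels between 34.6 and 2399 normalized counts. MI0039740_gene, the highest of them by its mean, stood at 975, 634, 1519 and 1595 normalized counts in control 1 to 4 and at 678, 440, 673, 1120 and 314 in knockout 1 to 5. Its controls were mostly the higher libraries, but control 2 was below 3 of the 5 knockout libraries. The fitted log2 fold change came to -0.91 (SE 0.39, limma adjusted p = 0.56).

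MI0031829_gene stood at 417, 2399, 733 and 279.99 normalized counts in control 1 to 4 and at 1391, 513, 576, 537 and 356 in knockout 1 to 5. Control 2 and knockout 1 were the high libraries, and the groups overlapped throughout (log2 fold change -0.16, SE 0.60, limma adjusted p = 0.94). MI0032315_gene had the smallest standard error of the tested MI rows, with 240.8 to 833 normalized counts in the control clone and 319 to 754 in the knockout clone (log2 fold change 0.12, SE 0.35, limma adjusted p = 0.93). MI0039501_gene lay between 282 and 338 in all 5 knockout libraries but between 65.6 (control 3) and 876 (control 4) in the control clone (log2 fold change 0.25, SE 0.58, limma adjusted p = 0.91). MI0039717_gene and MI0033419_gene had log2 fold changes of -0.18 (SE 0.43) and -0.30 (SE 0.61), with limma adjusted p = 0.91 and 0.90.

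**Figure D4:**
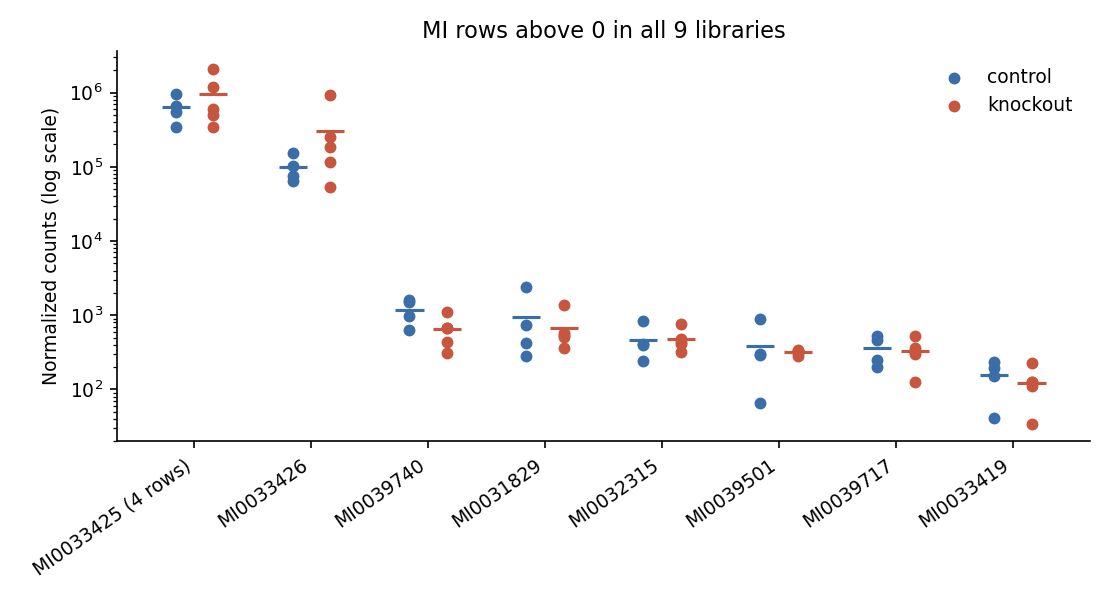
Normalized counts (log scale) of the MI rows above 0 in all 9 libraries, with 1 point per library and a bar at the group mean, for the control and knockout clones. The MI0033425 and MI0033426 rows stand at 53143 or more in every library, the other 6 rows stand between 34.6 and 2399, and the groups overlap in each row.

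Rows above 0 in only some libraries gave the largest fold changes and the largest errors. MI0033670_gene was at 0 in all 4 control libraries and at 83.3, 45.1, 55.9, 134 and 0 normalized counts in knockout 1 to 5. In recovered counts these values were 87, 40, 48 and 179, of which the smaller ones are no more than the low values most frequent among miRNA rows. The limma adjusted p was 0.19, and over the alternatives tried it ran from 0.0019 to 0.42. As every control library was at 0, the size of a fitted fold change depends on the pseudocount, and none is given. The row passed with DESeq2 (adjusted p = 0.0044), which called 2.14% of all rows. It passed too without knockout 5 (limma adjusted p = 0.0019), the knockout library at 0. The fit with replicate numbers as blocks, which called 0.155% of all rows, also sets knockout 5 aside because that library has no partner. The row passed there as well (limma adjusted p = 0.0398). Both fits set controls all at 0 against knockout libraries all above 0. As the row passed the filter only through those libraries, these passes repeat 1 outcome and add no support. In the authors' deposited table it is the only MI row with an adjusted p under 0.05 (adjusted p = 0.0051), of 28 MI rows with an adjusted p there, where 2.05% of all rows with an adjusted p pass.

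MI0033420_gene stood at 46.8, 65.3, 0 and 0 normalized counts in control 1 to 4 and at 698, 97.0, 144, 37.4 and 22.1 in knockout 1 to 5. Knockout 1 held most of it, and knockout 4 and 5 lay within the control range (log2 fold change 3.70, SE 1.51, limma adjusted p = 0.53). MI0039724_gene stood at 61.6, 63.7, 0 and 218 in control 1 to 4 and at 579, 104, 128, 179 and 259 in knockout 1 to 5 (log2 fold change 2.74, SE 1.34, limma adjusted p = 0.63). MI0039716_gene was above 0 in every library but control 2, with up to 292 in the control clone and 185 to 683 in the knockout clone (log2 fold change 2.67, SE 1.46, limma adjusted p = 0.68). All 3 rows were at 0 in at least 1 control library. Without control 2, MI0039716_gene stood at 0.77, and without control 3, MI0039724_gene stood at 1.10.

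Of the 5 lowest fold changes, MI0039740_gene is described above, and the other 4 came from rows at 0 in several libraries. MI0031828_gene was above 0 in control 1, 2 and 4 (56.9 to 62.1 normalized counts) and in knockout 4 and 5 (232 and 103), with a log2 fold change of -1.53 (SE 2.07, limma adjusted p = 0.85), which turned to 0.64 with edgeR and 0.60 with DESeq2. MI0036558_gene, MI0039730_gene and MI0039732_gene had log2 fold changes of -1.47 (SE 2.12), -0.81 (SE 2.20) and -0.70 (SE 1.90), with limma adjusted p between 0.86 and 0.92. The value of MI0036558_gene was -0.0048 without control 4 and -2.71 without control 1. MI0039739_gene and MI0039721_gene, at 2.24 (SE 1.85) and 1.88 (SE 2.11), did not pass either (limma adjusted p = 0.79 and 0.83). MI0039739_gene stood at 3.67 without control 4, and MI0039721_gene ran from 0.69 to 3.52 with 1 library left out.

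Over the tested MI rows, 0 of 26 passed limma's adjusted p of 0.05, where 0.54% of all 27777 tested rows passed. At an unadjusted p under 0.05 there were 3 MI rows (MI0033670_gene, MI0033420_gene and MI0039740_gene), and over all tested rows 8.63% had such a p. EdgeR's quasi-likelihood test called 0 of the 26, where it called 0.544% of all rows. DESeq2 called 1 of the 26, where it called 2.14%, and limma with replicate numbers as blocks called 1, where it called 0.155%. The 26 rows are those with enough counts for the filter on low values, and as the MI0033425 rows repeat 1 measurement they hold 23 distinct ones. The other 43 rows did not pass the filter, and 17 of those were above 0 in some library. A row can pass the filter through the clone in which it is higher, so the counts over the 26 describe these rows and are not support for a difference.

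The control and knockout libraries overlapped in each of the 26 tested MI rows. Over all tested rows, 3.95% did not overlap, so a count of 0 in 26 is near that share. A row at 0 in a library of each clone overlaps by definition. Log2 fold changes were positive in 18 and negative in 8 of the 26, which count the identical MI0033425 rows 4 times. The median was 0.36, beside 0.01 over all tested rows, and it is the value of each MI0033425 row. This median came to -0.01 without knockout 1, 0.10 without control 3, 0.20 without knockout 2 and 0.29 without knockout 4. It came to 0.42 without control 1, 0.45 without knockout 3, 0.59 without control 2, 0.64 without control 4 and 0.65 without knockout 5. Except without control 4 and without knockout 4, each of these is again the MI0033425 value. Without knockout 4 each MI0033425 row stood at 0.51. Most of these medians therefore follow 1 measurement, and they do not show a shift shared by the rows. The median standard error was 1.40 for the MI rows and 0.31 for all tested rows.

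**Figure D5:**
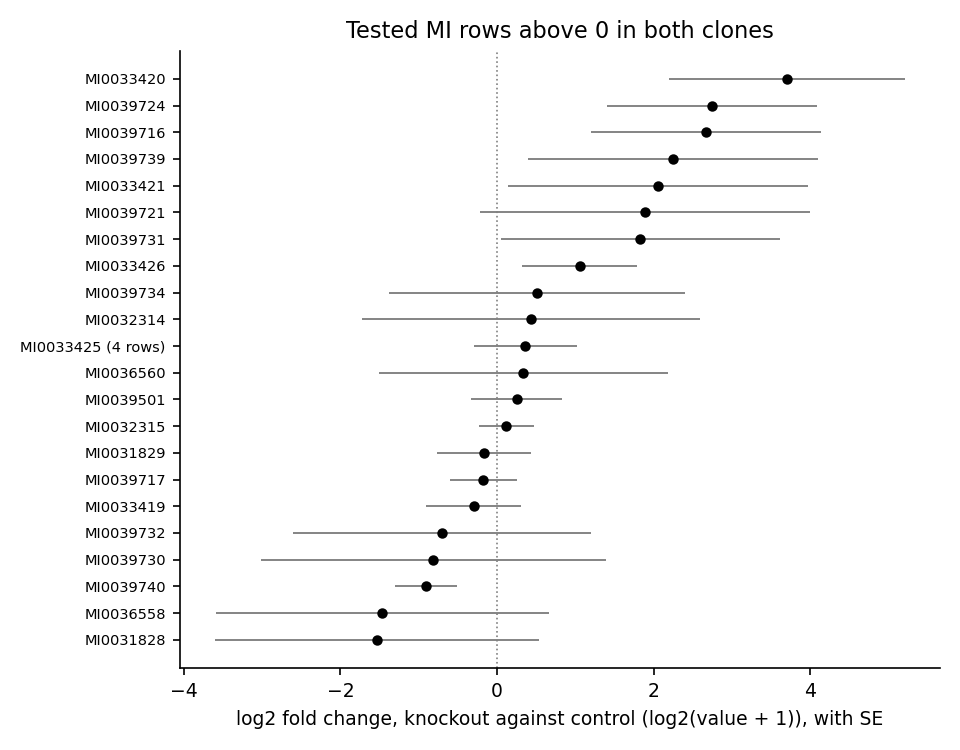
Log2 fold change of the 22 distinct tested MI rows above 0 in both clones, knockout against control, on the log2(value + 1) scale (horizontal axis), with 1 SE to each side and the identical MI0033425 rows drawn once. The widest bars belong to rows at 0 in some libraries, and MI0033420 at 3.70 is farthest from 0.

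The rows that carry a MIR symbol were more often empty than the MI rows, as a description with no test. Of 1852 such rows, 52.1% were at 0 in every library, against 37.7% of the MI rows, and 26.7% were tested, against 37.7% of the MI rows. Of the 495 tested, 0 were higher in the knockout clone by limma, beside 0.115% of all tested rows, and 2 were lower, beside 0.425%. MIR764 stood at 242, 230, 131 and 58.7 normalized counts in control 1 to 4 and at 0 in all 5 knockout libraries (limma adjusted p = 0.00017). MIR2276 stood at 193 to 252 in the control clone and at 50.9 to 127 in the knockout clone, a log2 fold change of -1.42 (SE 0.25, limma adjusted p = 0.045). MIR2276 passed in 8 of 20 alternatives, and it was lost with the block (limma adjusted p = 0.068), with edgeR (adjusted p = 0.058) and without any 1 of control 1 to 4 or knockout 1, 2 or 4. Its adjusted p ran from 4.2e-05 (DESeq2) to 0.22 (CPM scaling) over the alternatives, and MIR764 passed in all 19 in which it was tested. EdgeR called 0 higher and 1 lower (0.202% of the 495, beside 0.544% of all rows), and the block fit called as many (0.202% beside 0.155%). DESeq2 called 6 higher and 2 lower (1.62%, beside 2.14%). An unadjusted limma p under 0.05 was found for 34 of the 495 (6.87%, beside 8.63%). Their median log2 fold change was 0.50 and their median standard error 1.61. The difference between these medians and those of the MI rows was not tested.

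None of the 28 microRNA biogenesis genes examined passed limma, edgeR or DESeq2 between the clones. All 28 were tested, each of the 3 tools called 0, and 1 (TNRC6C) had an unadjusted limma p under 0.05. Over all rows limma called 0.54%, edgeR 0.544% and DESeq2 2.14%, and 8.63% had such a p, so a count of 0 in 28 genes is near the background for this list and the next. The biogenesis genes had a median log2 fold change of -0.04 and a range of -0.38 to 0.52. DROSHA, which makes the first cut, measured 966 ± 221 normalized counts in controls (SD, n = 4) and 955 ± 165 in the knockout clone (SD, n = 5), a log2 fold change of -0.01 (SE 0.20, limma adjusted p = 0.99). DGCR8, its RNA-binding partner, stood at -0.07 (SE 0.18), DICER1, which makes the second cut, at 0.12 (SE 0.12), and AGO2, which carries the mature microRNA, at 0.20 (SE 0.15). LIN28A, the block on let-7 maturation, stood at -0.38 (SE 0.26, limma adjusted p = 0.75). Of 28 genes of RNA polymerase I and ribosomal RNA processing tested, limma called 0, as did edgeR and DESeq2. Unadjusted limma p was under 0.05 for 2 of them (POLR1C and UTP14A, also picked after their values were seen). Log2 fold changes were negative in 23 of the 28, with a median of -0.16 beside 0.01 over all tested rows. The share of negative values over all tested rows was not counted. Control 3 was the highest control library for most of these genes, and its part in the 23 was not tested.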

How the data were processed

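Total RNA libraries of 4 control and 5 knockout passages were compared. Per the labels' protocols, RNA was prepared with a stranded total RNA kit after depletion of ribosomal RNA. Per the submitters' processing notes, fastp, kallisto, DESeq2 and hg38 were used, with no version or role. The annotation, and any use of strand in counting, are not stated there or in the labels. Each deposited signal column holds the normalized counts of 1 library, which are counts over that library's size factor. Beside them the authors deposited a mean signal, a log2 fold change and its error, a test score, and a p-value before and after adjustment.

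Within a tolerance of 1e-06, 100% of the values came out whole when divided by the lowest value above 0 of that library, so whole counts were recovered by division. Their totals set the depth, although how a count in a short row relates to sequenced fragments is not known. Reads shared by near-identical copies cannot be told apart.

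Testing used limma 3.58.1 in R 4.3.3, with a trended variance on log2(value + 1), a scale on which the fold change of a low row depends on the pseudocount. The group was the only term, over 27777 rows kept by filterByExpr with a minimum count of 10, with Benjamini-Hochberg adjustment. edgeR's quasi-likelihood test (version 4.0.16) on the recovered counts called 151 rows and DESeq2 (version 1.42.0) was another alternative. Other pseudocounts, filters, scalings, a replicate block and leaving out each library were also tried. The limma step was tested on simulated data. The members and lists were chosen with earlier results of these data known.

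The rows named are all called MI rows, the 15 with the highest mean, the 5 largest changes each way among tested rows, 5 biogenesis genes (DROSHA, DGCR8, DICER1, AGO2, LIN28A) and at most 4 members called in a list. Where another row is named, it was chosen after its values were seen. Symbols of 60507 rows came from a table of Ensembl identifiers.

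Because the batch tag of the labels is the replicate number, libraries of equal number were paired. For pairs 1 to 4, the correlation of deviations from the mean of each clone was 0.067, 0.023, 0.25 and 0.33. Knockout 2 correlated more with control 3, at 0.13, and knockout 5 has no partner, so the block fit draws no contrast from it.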

Additional observations from a re-analysis of the deposited data

Results flagged for a closer look

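In 43 groups of 4 or 5 libraries, the gap of the highest or lowest library to its neighbour was compared with the range of the group (Dixon's criterion). Chance passes this in about 1 of 20 groups of normal values, and 8 groups passed here. Some groups hold libraries at 0, and a group at 0 in all but 1 library passes by construction. That rate therefore need not hold, and the 8 are not read as an excess over chance. In the knockout clone, knockout 1 stood apart for MI0033426_gene at 927771 normalized counts, for MI0031829_gene at 1391 and for MI0033420_gene at 698. Knockout 4 stood apart for MI0039730_gene at 176 normalized counts and for the share of ribosomal RNA rows at 1.07%. In the control clone, control 1 stood apart for MI0039721_gene at 363 normalized counts, control 4 for MI0039739_gene at 50.6 and control 3 for MI0031828_gene at 0.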

How the results depend on the processing

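With all rows tested, limma called 150, and the number was 79 when libraries were scaled to the counts outside the MI rows, 77 with CPM, 593 with DESeq2, 43 with the replicate number as a block, 69 with a minimum count of 100 and 80 to 184 with 1 library left out. Among MI rows the count of 0 became 1 with DESeq2, 1 with the replicate block and 0 to 1 with 1 library left out, in each case MI0033670_gene, and the last of these is without knockout 5. The block fit also sets aside knockout 5, which has no partner, so its fold for that row is the one without knockout 5. It changed no other call among the MI rows. A pseudocount of 50 and the minimum count of 100 were chosen after seeing the data, and 0 MI rows passed under either. MI0033670_gene failed the filter with that minimum count, so it was not tested there.

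Directions turned in rows that never passed. MI0031828_gene stood at 0.64 with edgeR and 0.60 with DESeq2, and MI0039501_gene at -0.27 and -0.28. MI0031829_gene stood at 0.10 scaled to counts outside the MI rows, 0.00094 with CPM and 0.026 with the replicate block, MI0032315_gene at -0.062 and MI0033419_gene at 0.10 with the block, MI0039717_gene at 0.0899 scaled to counts outside the MI rows, and MI0039721_gene at -0.041 with DESeq2. With 1 library left out, MI0031829_gene ran from -0.58 to 0.45, MI0032315_gene ran from -0.16 to 0.44, MI0033419_gene ran from -0.85 to 0.10, each MI0033425 row ran from -0.0084 to 0.65, MI0039501_gene ran from -0.42 to 0.82, MI0039717_gene ran from -0.42 to 0.13, MI0039730_gene ran from -1.96 to 0.35 and MI0039732_gene ran from -1.69 to 0.29. The cause of these turns was not tested. Scaling to the counts outside the MI rows moved the median log2 fold change of all rows from 0.01 to 0.27, and CPM moved it to 0.17, while the median of the MI rows moved from 0.36 to 0.60 and 0.52. The replicate block gave the MI rows a median of 0.65, the same as without knockout 5 and the value of each MI0033425 row in both fits. The ratio of the summed MI rows ran from 1.06 to 1.89 with 1 library left out. For the named MI rows, 370 of the values under an alternative kept their direction and side of the threshold, 27 turned and 3 newly passed, those 3 for MI0033670_gene. The number of fragments behind a low value in a short row, which is not known, limits all sparse rows.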

Other observations

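Within a library, MI0033426_gene stood at 0.152, 0.157, 0.185 and 0.135 times the level of a single MI0033425 row in control 1 to 4. In knockout 1 to 5 the ratio was 0.440, 0.208, 0.312, 0.233 and 0.156. This ratio does not depend on the scaling of the libraries, and the groups overlapped through knockout 5. It was computed after the values were seen and was not tested.

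In the authors' deposited table, 5 MI rows have a log2 fold change larger than 15 in size. All 5 are above 0 in a single library, so the other clone is at 0 and these sizes are not measured folds, and 0 of the 5 have an adjusted p there.

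MI0016829_2_gene and MI0016830_gene, picked after their values were seen, hold the same values as MIR4477A and MIR4477B, 15 counts in control 4 and 0 in the other libraries. Each shares these values with 6 rows of the table. Such identity was common in sparse rows, as 8 of the 11 MI rows above 0 in a single library hold the same values as at least 1 other row. These 15 counts are the lowest value above 0 among the MI rows.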
